A study of Mus musculus with 4 samples.

Results

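NF-κB is a family of dimeric transcription factors, and the 10 genes described here encode its 5 subunits (Nfkb1, Nfkb2, Rel, Rela and Relb), 3 classical IκB inhibitors (Nfkbia, Nfkbib and Nfkbie) and 2 nuclear IκB proteins (Bcl3 and Nfkbiz). They were picked by symbol, as a gene family, from the 11027 genes listed for the study, and all 10 were among the 10960 genes with enough reads to be compared. The RNA came from CD4+ T cells of wild-type C57BL/6 mice aged 7 to 8 weeks, taken as naive cells from spleen and lymph nodes. After activation and retroviral infection in neutral medium, GFP-positive cells were sorted and placed in 1 of 2 cultures. The 4 groups were Tfh-like culture with Tox2 virus, Tfh-like culture with GFP-only virus, Th0 culture with Tox2 virus and Th0 culture with GFP-only virus, with 1 library each. Th0 medium held antibodies to IFN-gamma, IL-4 and IL-2, so all 4 groups were under this blockade, and Tfh-like medium added IL-6. Tox2, a DNA-binding protein with an HMG box, was forced from a retrovirus on top of the endogenous gene, and the number of mice behind a library is not given in the sources used here.

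The libraries held 13015283 to 13673774 counts. With Tox2 virus the Tox2 gene had 32246 counts in Tfh-like and 35297 in Th0, and with GFP virus it had 851 and 144, in keeping with the virus named on each label. All 8 markers of CD4+ T cells were present, with sums of 5449 to 5603 CPM (read counts scaled to a common library size by TMM). Within that sum Cd4 rose with Tox2 (log2 fold 0.49, edgeR adjusted p = 0.0336), Cd5 fell with Tox2 (-0.65, adjusted p = 0.0168) and Cd28 rose with the culture (0.54, adjusted p = 0.0160). Of the markers of other cells, 1 of 2 was listed for CD8+ T cells, 1 of 6 for B cells, 2 of 7 for myeloid cells, 1 of 5 for dendritic cells and 0 of 4 for NK cells, and the largest sum for any of these types was 15.4 CPM, from Cd8b1. In bulk RNA, fewer cells that express a gene and less RNA per cell cannot be told apart. With 1 library per group, the fitted test has no spread to go by other than how unlike the Tox2 effects in the cultures were, so no p-value here measures variation between cultures or animals.

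In resting cells, dimers of the subunits are held in the cytoplasm by the classical inhibitors until the IKK kinase complex marks these for destruction. Nfkb1 and Nfkb2 encode the precursors p105 and p100, which are cut to p50 and p52 and themselves restrain the other subunits. Bcl3 and IκBζ (the Nfkbiz product) act in the nucleus on dimers that are already bound to DNA. In T cells, antigen receptor and CD28 signals reach IKK through adaptors that include MALT1. Several members of the family are themselves targets of NF-κB, and transcript levels say nothing direct about nuclear NF-κB activity.

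The levels were first set side by side as FPKM, which is scaled per length and so can be compared between genes. In both Tfh-like libraries Bcl3 was the highest of the 10, at 122 FPKM with Tox2 and 102 FPKM with GFP. In Th0 it stood at place 8 with Tox2, at 18.8 FPKM, and at place 10 with GFP, at 11.1 FPKM. The other highly expressed members were Nfkbia, Nfkb2 and Rela, which lay between 56.0 and 98.3 FPKM in every library. Nfkb1 stood at 38.9 and 41.2 FPKM in Tfh-like with Tox2 and with GFP and at 57.7 and 56.4 FPKM in Th0 with Tox2 and with GFP. Relb, Nfkbie and Nfkbiz stayed between 8.03 and 19.5 FPKM in all 4 libraries.

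**Figure D1:**
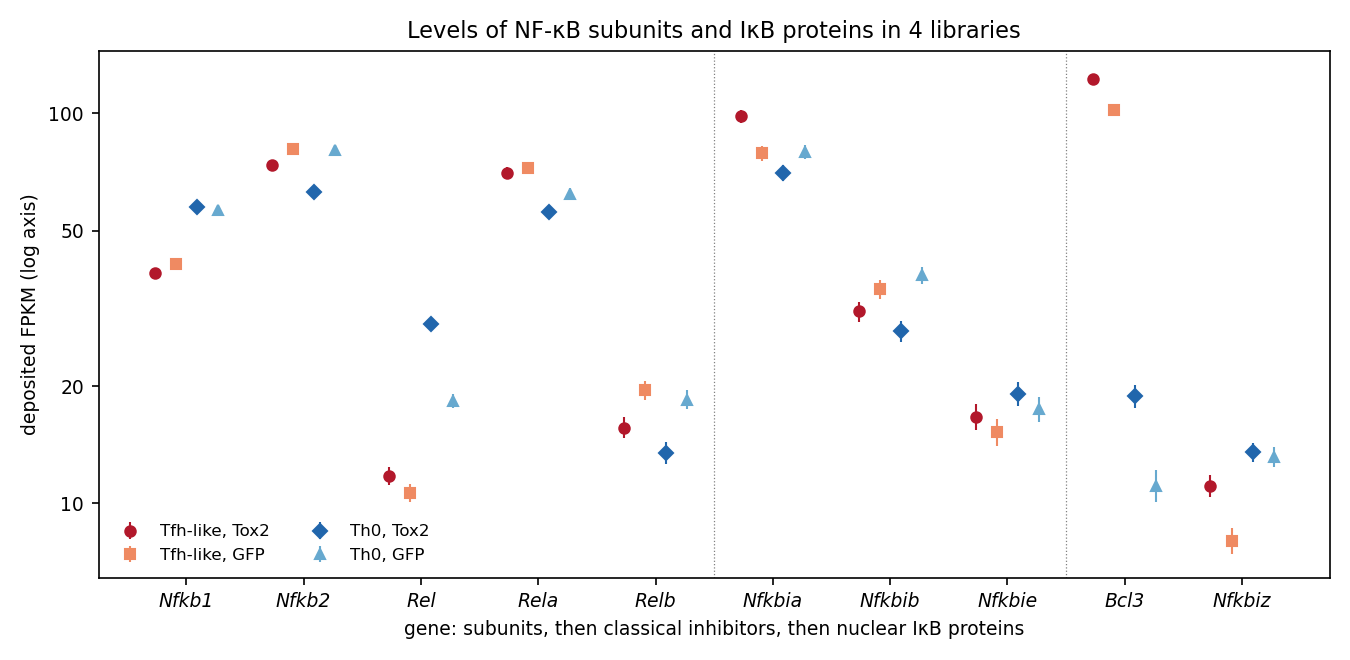
Deposited FPKM (log axis) of each gene in the 4 libraries, named by culture and virus, with bars for the exact 95% Poisson counting interval. Bcl3 spans 11.1 to 122 FPKM, a wider range than that of any other gene shown.

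The order of neighbouring genes was often within counting error. In Tfh-like with Tox2 the intervals overlapped for Nfkb2 and Rela, for Nfkbie and Relb, and for Rel and Nfkbiz. In Tfh-like with GFP they overlapped for Nfkb2 (81.1 FPKM, 78.7 to 83.5) and Nfkbia (78.9 FPKM, 75.6 to 82.4). In Th0 with Tox2 the overlapping neighbours were Nfkb1 and Rela, Rel and Nfkbib, Nfkbie and Bcl3, and Nfkbiz and Relb. In Th0 with GFP they were Nfkb2 and Nfkbia, Relb and Rel, and Rel and Nfkbie. The intervals describe counting error alone, and reads lacking molecular identifiers are not separate molecules.

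The next question was how the family differed between the cultures with and without IL-6. Bcl3 rose in Tfh-like, Rel, Nfkb1 and Nfkbiz fell, and the remaining members did not pass the test, an adjusted p under 0.05. Thus 1 of 10 members rose, where 14.3% of all genes tested did, and 3 of 10 fell, where 9.96% did. Over all genes 1564 rose and 1092 fell, and with libraries scaled by the total of listed counts the split was 1500 and 1649. The median log2 fold of the 10 members was 0.06, and that of all genes was -0.01.

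Bcl3, whose product binds p50 and p52 homodimers and can turn them into activators, showed by far the widest difference of the 10. It had 5025 counts in Tfh-like with Tox2 and 4103 in Tfh-like with GFP, against 803 in Th0 with Tox2 and 467 in Th0 with GFP. Both Tfh-like libraries were thus several times above both Th0 libraries. The ratio of Tfh-like to Th0 was 6.48 with Tox2 (95% counting interval 6.03 to 7.01) and 9.01 with GFP (8.22 to 9.98). Over both viruses the log2 fold was 2.93 (SE 0.14, edgeR quasi-likelihood adjusted p = 0.000157), or 7.63-fold. Bcl3 was the only member 2-fold higher in Tfh-like, with either virus; 6.56% of genes were 2-fold higher with Tox2 and 7.78% with GFP. Bcl3 lies on chromosome 7, 19808462 to 19822770, minus strand (GRCm38). It shares 161 exon bases with Gm16175 on the opposite strand, and as the strand setting of the counting is not given, reads from there cannot be told apart.

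Rel, which encodes the subunit c-Rel, an activator of Il2 in T cells, fell. It had 1458 counts in Tfh-like with Tox2 and 1295 in Tfh-like with GFP, against 3720 in Th0 with Tox2 and 2326 in Th0 with GFP. Both Tfh-like libraries were below both Th0 libraries, and Th0 with Tox2 was the highest. The ratio was 0.407 with Tox2 (0.383 to 0.432) and 0.574 with GFP (0.535 to 0.614), and the log2 fold over both was -1.05 (SE 0.14, edgeR adjusted p = 0.00330). Rel was the only member 2-fold lower, and only with Tox2, where 2.86% of genes were. Rel lies on chromosome 11, 23736847 to 23770970, minus strand.

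Nfkb1, the gene of p105 and p50 (chromosome 3, 135584655 to 135691547, minus strand), also fell. It had 7797 counts in Tfh-like with Tox2 and 8084 in Tfh-like with GFP, against 11996 in Th0 with Tox2 and 11574 in Th0 with GFP, so the cultures were well apart and the viruses close. The log2 fold was -0.57 with Tox2 (-0.61 to -0.53) and -0.48 with GFP (-0.52 to -0.43). Over both it was -0.52 (SE 0.10, edgeR adjusted p = 0.0109).

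Nfkbiz, which encodes IκBζ, a nuclear protein known in mouse to favour Th17 cells, had 925 counts in Tfh-like with Tox2 and 656 in Tfh-like with GFP, against 1170 in Th0 with Tox2 and 1122 in Th0 with GFP. The lowest library was Tfh-like with GFP. The log2 fold was -0.28 with Tox2 (-0.41 to -0.16) and -0.73 with GFP (-0.87 to -0.59). Over both it was -0.51 (SE 0.13) and passed with edgeR (adjusted p = 0.0366) but not with DESeq2 (adjusted p = 0.0643). Nfkbiz lies on chromosome 16, 55811375 to 55838899, minus strand. The 2 nuclear IκB genes therefore went in opposite directions between the cultures. In FPKM, Bcl3 was 11.0 and 12.7 times Nfkbiz in Tfh-like with Tox2 and with GFP, and 1.39 and 0.844 times in Th0 with Tox2 and with GFP.

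**Figure D2:**
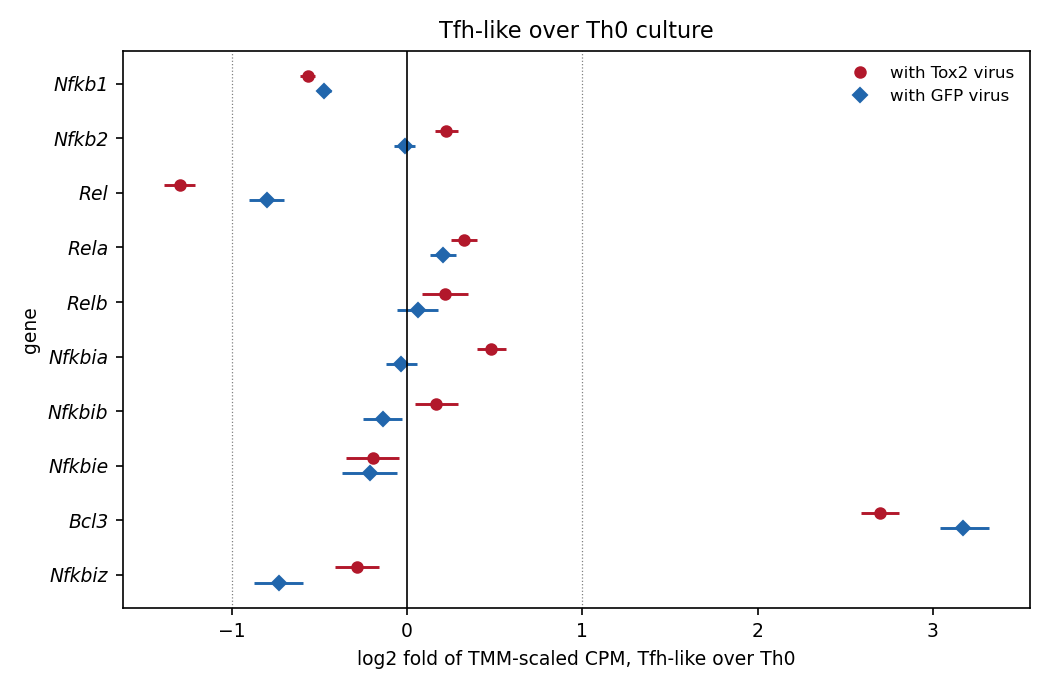
Log2 fold of TMM-scaled CPM in Tfh-like over Th0 culture for each gene, with Tox2 virus (circles) and GFP virus (diamonds). Lines are exact 95% counting intervals and dotted lines mark a 2-fold difference; Bcl3 lies at 2.70 and 3.17 and Rel at -1.30 and -0.80.

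Among the subunits that did not pass for the culture, Rela, which encodes p65, the main transactivating subunit, had 3166 counts in Tfh-like with Tox2 and 3208 with GFP, against 2621 and 2867 in Th0 with Tox2 and with GFP. Its log2 fold over both viruses was 0.27 (SE 0.10, edgeR adjusted p = 0.104). Nfkb2, the gene of p100 and p52, had 4018 and 4344 counts in Tfh-like with Tox2 and with GFP and 3571 and 4513 in Th0 with Tox2 and with GFP, so that the Tfh-like libraries lay inside the range of Th0. Relb, the partner of p52 in the alternative pathway, had a log2 fold of 0.14 (SE 0.10, edgeR adjusted p = 0.391). Nfkb2 shares 299 exon bases with Psd and 531 with a non-coding gene on the opposite strand, so some of its counts are uncertain; Psd itself had 552 to 808 counts.

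None of the 3 classical inhibitors passed for the culture with edgeR, with DESeq2 or with limma-voom, or had an unadjusted edgeR p under 0.05. Nfkbia, which encodes IκBα, the inhibitor resynthesised after each NF-κB pulse, had 2629 counts in Tfh-like with Tox2 and 2070 with GFP, against 1954 and 2180 in Th0 with Tox2 and with GFP. Tfh-like with Tox2 was the highest library, Th0 with Tox2 was the lowest, and the GFP libraries were close. Its log2 fold was 0.48 with Tox2 (0.40 to 0.57) and -0.03 with GFP (-0.12 to 0.05), and 0.22 over both (SE 0.14). Nfkbie, encoding IκBε, had a log2 fold of -0.21 (SE 0.10, edgeR adjusted p = 0.188). Nfkbib, encoding IκBβ, had 1119 and 1250 counts in Tfh-like with Tox2 and with GFP and 1035 and 1418 in Th0 with Tox2 and with GFP. Its log2 fold over both viruses was 0.01 (SE 0.12), and its sign turned under 4 alternatives, among them upper quartile scaling. Nfkbib shares 314 exon bases with Ccer2 and 42 with Sirt2 on the opposite strand, and Sirt2 had 1499 to 2657 counts.

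Summed by role, the widest gap between the cultures was in the nuclear IκB genes. The subunits summed to 210 and 225 FPKM in Tfh-like with Tox2 and with GFP, and to 219 and 236 FPKM in Th0 with Tox2 and with GFP. The classical inhibitors summed to 146 and 130 FPKM in Tfh-like and to 117 and 136 FPKM in Th0, with Tox2 and with GFP in each culture. The nuclear IκB genes summed to 133 and 110 FPKM in Tfh-like and to 32.3 and 24.2 FPKM in Th0, in the same order of viruses. Per 100 FPKM of subunits this gave 63.5 and 48.8 FPKM of nuclear IκB transcript in Tfh-like, against 14.8 and 10.3 in Th0. Bcl3 made up 91.7% and 92.7% of the nuclear sum in Tfh-like and 58.2% and 45.8% in Th0. These sums are descriptions of single libraries and were not tested.

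**Figure D3:**
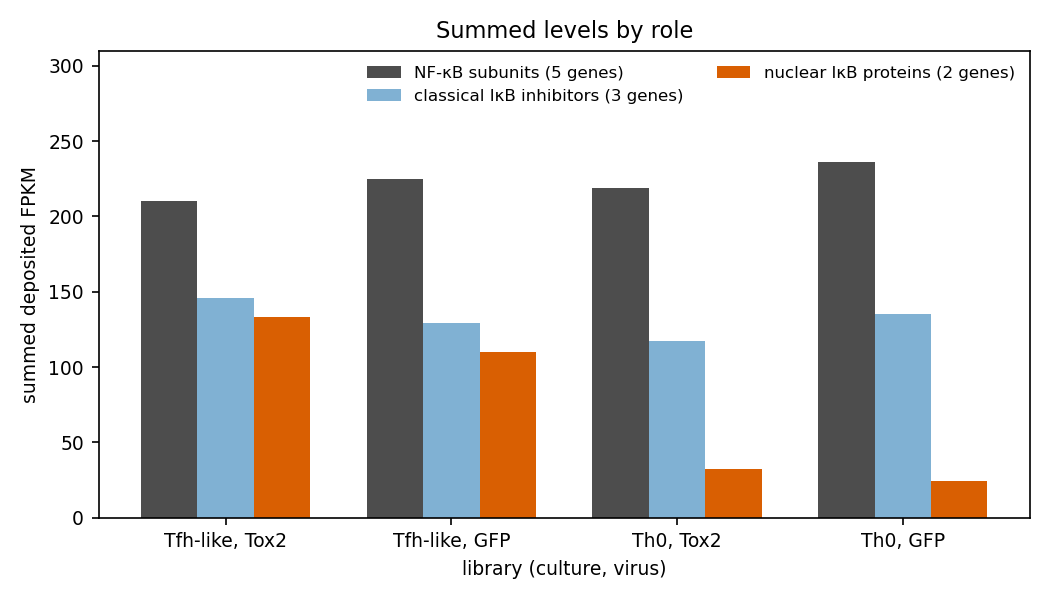
Summed deposited FPKM of the 5 subunits, the 3 classical inhibitors and the 2 nuclear IκB genes in each library, named by culture and virus. The subunit sum lies between 210 and 236 FPKM in all 4 libraries, and the nuclear sum is 133 and 110 FPKM in Tfh-like against 32.3 and 24.2 FPKM in Th0.

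Promoter sequences are shown for Bcl3 and Rel, whose levels moved furthest and in opposite directions between the cultures, and for Nfkbia, the textbook target of NF-κB. Capitals mark matches to the κB consensus, the DNA motif of NF-κB dimers, on either strand. The windows run from 200 bases before to 11 bases after the RefSeq start base, 5′ to 3′ on the gene's strand (RefSeq, GRCm38.p6): Bcl3 at chr7:19822744-19822955, Rel at chr11:23770958-23771169 and Nfkbia at chr12:55492636-55492847, all on the minus strand.
Bcl3: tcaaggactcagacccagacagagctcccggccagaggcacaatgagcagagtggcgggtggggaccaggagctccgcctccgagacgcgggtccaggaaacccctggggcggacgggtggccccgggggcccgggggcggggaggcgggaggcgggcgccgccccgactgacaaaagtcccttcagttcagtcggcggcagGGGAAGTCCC
Rel: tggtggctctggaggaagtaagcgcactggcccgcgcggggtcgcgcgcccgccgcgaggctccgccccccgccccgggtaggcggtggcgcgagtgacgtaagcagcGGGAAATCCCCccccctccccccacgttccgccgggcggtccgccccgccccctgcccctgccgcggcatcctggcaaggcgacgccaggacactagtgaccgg
Nfkbia: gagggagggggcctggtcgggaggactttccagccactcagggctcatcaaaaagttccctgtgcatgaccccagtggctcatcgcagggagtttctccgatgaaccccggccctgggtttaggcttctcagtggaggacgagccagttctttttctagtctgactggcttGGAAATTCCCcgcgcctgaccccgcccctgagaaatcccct

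The match in Bcl3 begins 2 bases after the start base. The stretch in Rel begins 92 bases before it and holds overlapping matches, and the match in Nfkbia begins 29 bases before it. Promoters of 7 of the 10 members were in the table used, each 300 bases long and beginning 250 bases before a start base. Of these, 5 genes had at least 1 match: Bcl3, Rel, Nfkbia, Nfkb2 and Nfkbie. Rela and Nfkbib had none in this window. One match of Nfkb2, at chr19:46304698-46304707, and that of Nfkbie, at chr17:45555594-45555603, read as follows on the gene's strand.
Nfkb2: GGGAATTCCC
Nfkbie: GGGGGATTCC
By promoter, 7 of 9 windows of members held a match, against 8.46% of all 32851 windows of the same length in the table and 10.4% of 11358 windows of genes listed in the files. Nfkb2 has 3 windows, of which 2 overlap and share a match. Nfkb1, Relb and Nfkbiz were not analysed here for promoters, so Bcl3 and Rel are the members with a window among those that passed for the culture. A motif match describes the letters and is not evidence of binding.

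The second question was whether forced Tox2 altered the family. None of the 10 members passed for Tox2 with edgeR, where 6.81% of all genes did, and 0 passed with DESeq2 or limma-voom. The smallest adjusted p was 0.0707, for Relb. An unadjusted edgeR p under 0.05 was found for 5 of the 10 (Bcl3, Rel, Relb, Nfkb2 and Nfkbib), where 27.4% of all genes had one. No member was 2-fold apart with Tox2 in Tfh-like, where 4.75% of genes were, or in Th0, where 4.74% were. The median log2 fold of the members was 0.0054 and that of all genes 0.0015. These results do not show that the levels were alike with both viruses, and most single pairs differed beyond counting error. How many of all genes did so was not counted, so this is not shown to be particular to the family.

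The 3 members furthest above 0 for Tox2 were Bcl3, Rel and Nfkbiz. Bcl3 had a log2 fold of 0.26 in Tfh-like (counting interval 0.20 to 0.32) and 0.73 in Th0 (0.57 to 0.90), and 0.48 over both (SE 0.14, edgeR adjusted p = 0.0872). Rel had 0.14 in Tfh-like (0.03 to 0.24) and 0.63 in Th0 (0.55 to 0.71), and 0.39 over both (SE 0.14, edgeR adjusted p = 0.135). Both were thus higher with Tox2 in either culture, with the wider gap in Th0. Nfkbiz was higher with Tox2 in Tfh-like, by 0.46 (0.31 to 0.61), and within counting error in Th0, at 0.01 (-0.11 to 0.13). With the length trend of each library removed, the fold of Nfkbiz in Th0 was -0.02.

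The 3 members furthest below 0 were Relb, Nfkbib and Nfkb2. Relb had 1008 counts in Tfh-like with Tox2 and 1234 in Tfh-like with GFP, and 902 counts in Th0 with Tox2 and 1219 in Th0 with GFP. Its log2 fold was -0.33 in Tfh-like (-0.45 to -0.21) and -0.48 in Th0 (-0.61 to -0.36), and -0.40 over both (SE 0.10). Nfkbib had -0.20 in Tfh-like and -0.50 in Th0 (-0.35 over both, SE 0.12, edgeR adjusted p = 0.122). Nfkb2 had -0.15 in Tfh-like and -0.39 in Th0 (-0.27 over both, SE 0.11, edgeR adjusted p = 0.169). Nfkb2 and Relb, the pair that forms the p52 and RelB dimer, were together 42.5 and 44.7 of every 100 FPKM of subunits in Tfh-like with Tox2 and with GFP, and 34.9 and 42.0 in Th0 with Tox2 and with GFP. Th0 with Tox2 had the lowest such share of the 4 libraries.

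Rela had a log2 fold for Tox2 of -0.05 in Tfh-like (-0.13 to 0.02) and -0.18 in Th0 (-0.25 to -0.10), so that it was lower beyond counting error in Th0. Nfkbie had 0.12 in Tfh-like (-0.04 to 0.28) and 0.10 in Th0 (-0.05 to 0.25), both within counting error of 0. Nfkb1 stood at -0.09 in Tfh-like (-0.13 to -0.04) and 0.00 in Th0 (-0.03 to 0.04), although it had the most counts of the family and so the narrowest intervals. With the length trend of each library removed, Nfkb1 was at -0.20 and -0.22 in Tfh-like and Th0.

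**Figure D4:**
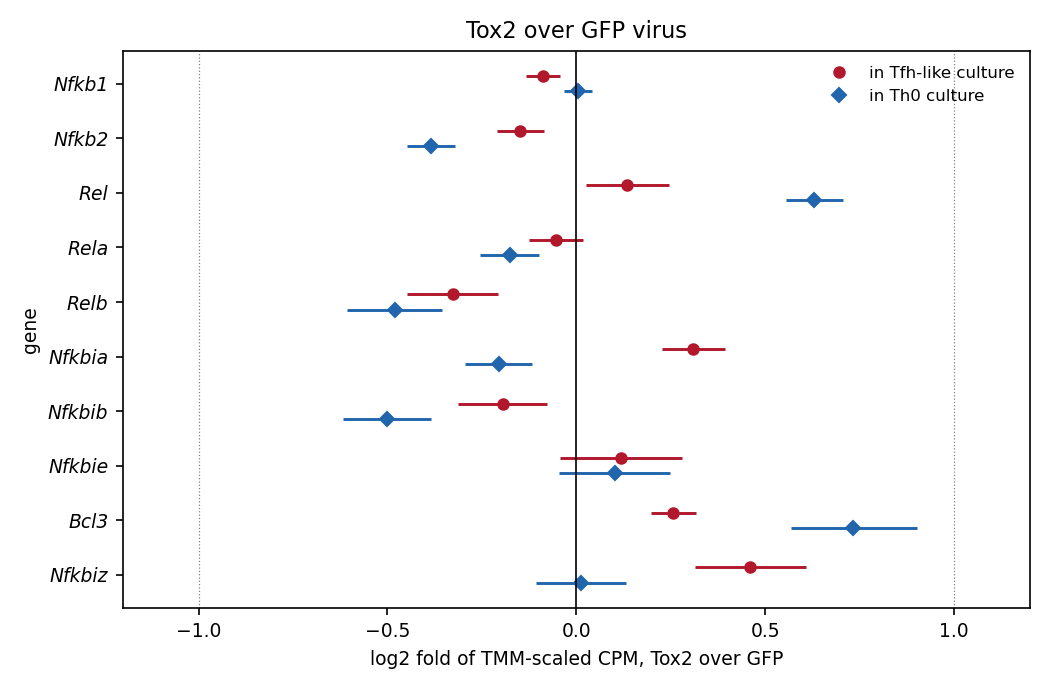
Log2 fold of TMM-scaled CPM with Tox2 over GFP virus for each gene, in Tfh-like (circles) and Th0 culture (diamonds). Lines are exact 95% counting intervals and the dotted lines mark a 2-fold difference, which no gene reaches; Nfkbia lies at 0.31 in Tfh-like and -0.21 in Th0.

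The Tox2 folds in the cultures differed beyond counting error for every member but Relb and Nfkbie. The share of all genes that did so was not counted, so this is not shown to be particular to the family. By 2-fold the Tox2 folds differed for 0 of the 10 members, where 3.48% of all genes did. The difference, Tfh-like minus Th0, was 0.51 for Nfkbia (0.39 to 0.64), 0.45 for Nfkbiz (0.26 to 0.63), 0.31 for Nfkbib (0.14 to 0.47), 0.24 for Nfkb2 (0.15 to 0.33) and 0.12 for Rela (0.02 to 0.23). It was -0.49 for Rel (-0.63 to -0.36), -0.48 for Bcl3 (-0.65 to -0.30) and -0.09 for Nfkb1 (-0.15 to -0.03). With the length trend removed, the difference was 0.02 for Nfkb1 and 0.38 for Nfkbia. None of these differences can be tested with single libraries.

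The rest of the pathway was read from lists of 95 genes outside the family, of which 90 could be compared. For Tox2, 2 rose and 5 fell, or 7.78% of the 90, close to the 6.81% of all genes that passed (4.07% rose and 2.74% fell). For the culture 26 rose and 11 fell, or 41.1%, where 24.2% of all genes passed. The shares of all genes that rose or fell with the culture, 14.3% and 9.96%, are the background for each list that follows. DESeq2 passed 6 for Tox2 and 27 for the culture, and over all 10960 genes it passed 492 and 1619. These totals, not the edgeR shares, are the background for the DESeq2 counts of each list. The median log2 fold of the 90 genes was -0.0042 for Tox2 and 0.09 for the culture, against 0.0015 and -0.01 over all genes.

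In the list of IKK and upstream kinases 2 of 12 rose and 2 fell with the culture and 0 passed for Tox2, counts near the shares of all genes. Map3k14, which encodes NIK, the kinase of the alternative pathway, had 1503 and 1131 counts in Tfh-like with Tox2 and with GFP and 796 and 663 in Th0 with Tox2 and with GFP, a log2 fold of 0.89 (SE 0.11, edgeR adjusted p = 0.00214). Tab2, an adaptor of the kinase TAK1, rose by 0.42 on the log2 scale, while Map3k7, encoding TAK1 itself, fell (-0.43), as did the adaptor gene Tank (-0.51). With DESeq2, Map3k14 alone of these passed. Of 7 genes on the route from the T-cell receptor, 2 rose and 0 fell. Malt1, the protease and scaffold of that route, had 4547 and 5337 counts in Tfh-like with Tox2 and with GFP and 1973 and 1986 in Th0, a log2 fold of 1.36 (SE 0.11, edgeR adjusted p = 0.000519), and the costimulatory receptor Cd28 rose by 0.54.

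Of 14 TRAF, cIAP and linear ubiquitin adaptors 3 rose and 2 fell with the culture (DESeq2 passed 3 and did not pass Traf2), again near the shares of all genes. Ripk1, a kinase at the TNF receptor, rose by 0.71 and the ubiquitin ligase Birc2 by 0.53, and Traf5 fell (-0.88), as did Traf2 (-0.39). Of 12 negative regulators of IKK 4 rose and 0 fell, although DESeq2 passed only 1, Tnip2. Tnip2, a partner of the ubiquitin-editing enzyme A20, had 774 and 974 counts in Tfh-like with Tox2 and with GFP, against 245 and 256 in Th0 (log2 fold 1.84, SE 0.12, edgeR adjusted p = 0.000293). Zc3h12a, an RNase that cuts mRNAs of this pathway, rose by 0.38. In the list of other IκB and nuclear regulators 1 of 8 rose, Nkiras2 by 0.52, and 2 fell. These were Nkrf, which did not pass with DESeq2 (-0.74), and Nfkbid, which encodes another nuclear IκB protein and had 242 and 182 counts in Tfh-like with Tox2 and with GFP, against 410 and 435 in Th0 (-0.96, SE 0.16). Nfkbid thus fell, as Nfkbiz did.

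Among receptors and adaptors that signal to NF-κB, 8 of 16 rose and 1 fell with the culture, and 2 rose and 1 fell for Tox2; DESeq2 passed 8 and 3. Of all genes 14.3% rose and 9.96% fell with the culture, and 6.81% passed for Tox2. The list had a median of 0.57 for the culture and -0.02 for Tox2. Tnfrsf8, encoding CD30, had 818 and 1868 counts in Tfh-like with Tox2 and with GFP, against 17 and 61 in Th0, a log2 fold of 5.19 for the culture (SE 0.17) and -1.34 for Tox2 (SE 0.16, edgeR adjusted p = 0.00932). The IL-1 receptor gene Il1r1 had 487 and 157 counts in Tfh-like and 10 and 9 in Th0, with Tox2 and with GFP. Its log2 fold for the culture was 5.03 (SE 0.35). Il1r1 did not pass for Tox2 (edgeR adjusted p = 0.0514). It was 2-fold apart with Tox2 in Tfh-like, at 1.59 (counting interval 1.33 to 1.87), where 4.75% of all genes were. Tnfrsf1b, which encodes the TNF receptor TNFR2, fell with the culture (-1.08). Tnfrsf1a, the gene of TNFR1, rose by 1.15 with Tox2 (SE 0.11, edgeR adjusted p = 0.00533), and so did the death-domain receptor Tnfrsf25, by 0.72 (SE 0.12).

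Known NF-κB targets outside the family went both ways. With the culture 8 of 26 rose and 4 fell (DESeq2 passed 10), where 14.3% and 9.96% of all genes did, with a median of 0.10. Ier3, an early response gene, had 872 and 1312 counts in Tfh-like with Tox2 and with GFP, against 173 and 184 in Th0 (log2 fold 2.64, SE 0.15), and the adhesion molecule Icam1 rose by 1.31. Cd83, an activation marker, had 194 and 117 counts in Tfh-like against 600 and 776 in Th0 (-2.11, SE 0.25), and the cytokine gene Il2 fell (-1.34). For Tox2, 0 of 26 rose and 4 fell (DESeq2 passed 3), where 4.07% and 2.74% of all genes did, with a median of -0.18. They were Irf4 (-1.09, SE 0.13), an activation-dependent transcription factor, and the survival genes Bcl2l1 (-0.65), Bcl2a1d (-0.79) and Bcl2a1b (-0.81), the last of which did not pass with DESeq2 (adjusted p = 0.154). Bcl2a1b and Bcl2a1d are near-identical copies, so their counts are uncertain. Il2ra, Csf2 and Gadd45b did not pass but were 2-fold apart with Tox2 in Tfh-like, at log2 folds of -2.11, -1.45 and 1.15. Of all genes, 4.75% were so apart. Il2ra had 2906 and 12209 counts in Tfh-like with Tox2 and with GFP, and 5591 and 5402 in Th0. Its Tox2 fold in Th0 was 0.0021, and the additive fit takes such a mismatch between cultures as spread. Csf2 had only 16 and 46 counts in Tfh-like. The lists share genes such as Tnfaip3 and Birc3, and they do not add up as separate evidence.

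**Figure D5:**
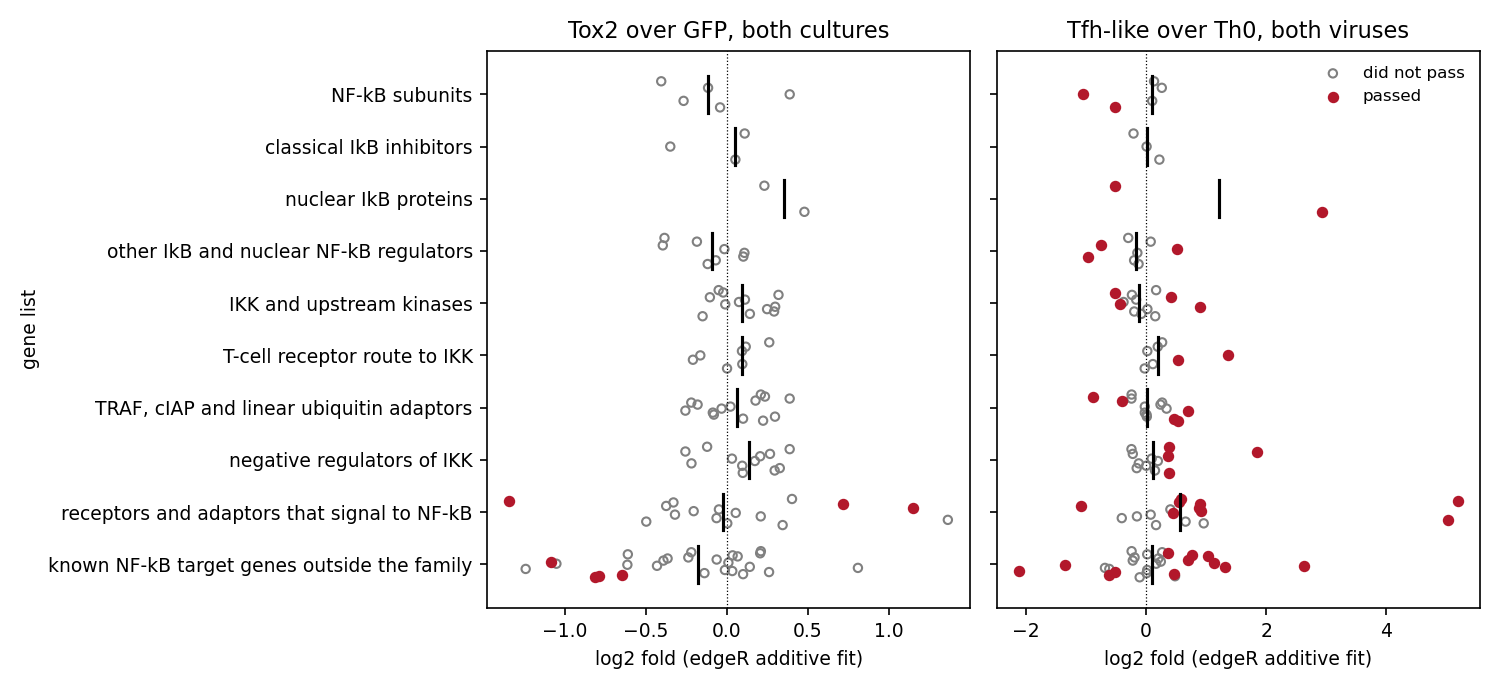
Log2 fold of each gene in the additive edgeR fit, by list, for Tox2 over GFP (left) and Tfh-like over Th0 (right). Filled points passed at an adjusted p of 0.05 and the black bar is the list's median; none of the 10 family members is filled on the left, and 4 are on the right.

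Bcl3 and Rel were the members that spanned at least a 2-fold range over the 4 libraries (log2 ranges 3.43 and 1.43). The search covered 9126 expressed genes, Bcl3 and Rel included. The nearest others to Rel in centred log2 CPM over the 4 libraries were Fhl2, Fgfr1op and Zfp827, at Euclidean distances of 0.10, 0.11 and 0.15. Fhl2, for example, had 167 and 137 counts in Tfh-like with Tox2 and with GFP, against 403 and 268 in Th0, so that, as for Rel, Th0 with Tox2 was the highest. The nearest to Bcl3 were Tgtp1, Myo10 and Selenbp2, at distances of 0.42, 0.49 and 0.51. Distances are not scaled to range, and Bcl3 has the wider range, so they do not compare closeness between Bcl3 and Rel. These distances rest on 4 libraries and are a description.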

How the data were processed

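Per the labels' protocols, RNA was extracted with Trizol and BGI made and sequenced the libraries. The deposited files give, per the file headers, whole-number read counts and FPKM per gene; the authors did not normalize the counts, and the deposited FPKM equals the count times 1 factor per library and 1 per gene. Per the submitters' processing notes the build was mm10 and the tools were edgeR, MACS2, Subread, featureCounts, Bowtie2 and Trim Galore 0.4.4. The sources used here give neither their roles nor the annotation or strandedness of the counting. In the files, the second-highest library of a listed gene has a CPM of 0.658 or more. They held 0 columns of other samples.

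TMM scaling was applied to the counts (edgeR 4.0.16, R 4.3.3). Genes reaching a CPM of 1 in any library were fitted with an additive model, culture plus virus, over all 4 libraries with edgeR's quasi-likelihood test and Benjamini-Hochberg adjustment over 10960 genes (threshold 0.05). "Rose" and "fell" mean passing it. Its 1 residual degree of freedom is the mismatch of the Tox2 effects in the cultures, moderated over genes (prior degrees of freedom, median 5.52), and SE is the log2 fold divided by the root of F. Pair folds used a prior count of 2 with an exact 95% conditional binomial interval, the difference of folds a delta-method interval. A pair was called 2-fold apart where its interval also excluded no difference. The procedure was tested on simulated counts with a virus effect and no culture effect. That setting does not cover Tox2 effects that differ between cultures. DESeq2 1.42.0, limma 3.58.1, other scalings, filters, prior counts and a length trend were alternatives; removal of GC and length trends was chosen after seeing the data. Members and lists were chosen with earlier results of these data known. Named list genes are those that passed, up to 4 per direction for Tox2 and up to 2 for the culture. Il2ra, Csf2 and Gadd45b were added for their Tox2 folds in Tfh-like. Likeness used genes at a CPM of 5 in every library or a mean of 20, without predicted genes. Positions are from GENCODE M21 (GRCm38).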

Additional observations from a re-analysis of the deposited data

Results flagged for a closer look

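Nfkbia was singled out because its Tox2 fold had opposite signs in the cultures with both counting intervals clear of 0. It was 0.31 on the log2 scale in Tfh-like (0.23 to 0.39) and -0.21 in Th0 (-0.29 to -0.12), a difference of 0.51. With the length trend of each library removed the fold in Th0 was -0.04. The difference was not tested, since each group has 1 library.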

How the results depend on the processing

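The Tox2 count of 0 members became 1 with libraries scaled by the total of listed counts, where Bcl3 passed, and stayed 0 in the other alternatives run. The culture count of 4 was 3 with DESeq2, which lost Nfkbiz, and stayed within 1.5 times throughout. At a 1.5-fold limit, 2 members (Rel and Bcl3) were apart with Tox2 in Th0, where 13.6% of genes were, and 3 (Rel, Bcl3 and Nfkbiz) between the cultures with GFP, where 22.3% were; the other pair counts did not change. The culture fold of Nfkbib turned to -0.025 with upper quartile scaling, -0.058 with total counts, -0.018 with the length trend removed and -0.080 with trends in both GC content and length removed. The cause was not tested, and these values lie within the SE of 0.12. Over all genes, 746 passed for Tox2, against 1193 with total counts, 492 with DESeq2 and 454 with the length trend removed; for the culture 2656 passed, against 1619 with DESeq2. No paired analysis of replicates was possible because each group has 1 library, and the labels give no replicate numbers. Leaving out any 1 library leaves no residual degree of freedom, so no test without a library was run. The lowest level of any member was 34.7 CPM (Bcl3 in Th0 with GFP), so counting intervals are narrow, and they leave out variation between cultures and animals.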
